A study of Arabidopsis thaliana with 2 samples.

Results

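The methionine sulfoxide reductase B (MSRB) genes of Arabidopsis thaliana were read in shoots of plants grown with or without an inhibitor of auxin transport. Members were all genes whose symbol begins with MSRB and a number. The TAIR10.1 gene table lists 9 such genes, and 4 of them, MSRB3, MSRB5, MSRB6 and MSRB9, have a named probe set on the array, out of 13356 genes named there. MSRB1, MSRB2, MSRB4, MSRB7 and MSRB8 were not analysed here. The family was selected on the NPA and control signals of the neighbouring genes MSRB5 and MSRB6, which had already been seen to differ in opposite directions in these data, so the values of its members are a description and carry no test.

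Both groups were shoots of ecotype Col-0, stock N1092, at developmental stage 1.04, about 2 weeks old with about 6 rosette leaves. In both, stratification was for 2 days at 4 C, and plants grew on agar at about 20 C with 16 h of light. One group grew with N-1-naphthylphthalamic acid (NPA), a compound that blocks the polar transport of auxin, dissolved in DMSO, and the control group with an equal volume of DMSO. For the dose of NPA, the treated sample's description says 10 uM and the growth protocol 10 mM, so it is not settled. Each group is 1 Affymetrix ATH1 array, and nothing in the labels says how many plants were pooled for it. The differences below are thus between 2 single arrays, without replicates, and their precision is limited by the number of arrays.

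Methionine in proteins is easily oxidised to methionine sulfoxide, which occurs as S and R forms. Reductases of type A (MSRA) act on the S form and those of type B on the R form, so the pair of enzyme classes returns oxidised methionine to its working state. The enzymes are themselves restored by thioredoxins, and in some plastid forms by glutaredoxins. In Arabidopsis MSRB1 and MSRB2 are plastid enzymes, MSRB3 enters the endoplasmic reticulum, and the other members are predicted to be cytosolic. The family is best known in plants from responses to oxidative stress, cold and high light.

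MSRB6 was far lower in the NPA array and MSRB5 higher, while MSRB3 and MSRB9 stayed within 2-fold. MSRB6 (AT4G04840), a predicted cytosolic member, gave 519 signal units in the control shoots and 34.5 in the NPA shoots. This is a 15.0-fold lower signal, or a log2 ratio of NPA over control of -3.91. MSRB5 (AT4G04830), also predicted to be cytosolic, went the other way, from 113 in the control to 347 in the NPA shoots. Its signal was 3.06-fold higher, a log2 ratio of 1.61. MSRB3 (AT4G04800), the member of the secretory pathway that is known from cold responses, had 81.9 and 81.7, a log2 ratio of 0.00. MSRB9 (AT4G21850) had 53.5 and 46.6, a log2 ratio of -0.20. In bulk shoot RNA, fewer cells of a type and less RNA per cell cannot be told apart.

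**Figure D1:**
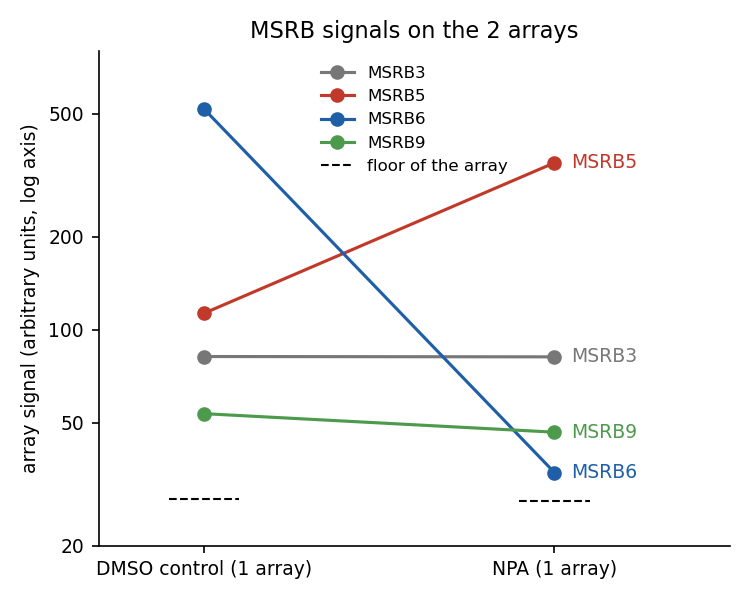
Signal of each MSRB gene with a named probe set for DMSO (left) and NPA (right), on a log axis in arbitrary units, with dashed lines for the floor of each array at 28.3 and 27.9. The MSRB6 line goes from 519 down to 34.5, close to the floor, and the MSRB5 line from 113 up to 347, while MSRB3 and MSRB9 are nearly level.

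The floor is the signal at the 40th percentile of each array, 28.3 in the control and 27.9 with NPA, and lower signals were raised to it before a ratio was taken. All 4 members were above it on both arrays, so none of these ratios is a bound. They stood at different heights over it, which matters for how a ratio reads. MSRB6 was 18.3 times the floor in the control and 1.24 times with NPA, so its signal with NPA was barely above the level treated as unmeasured. MSRB5 was 4.01 times the floor in the control and 12.5 times with NPA. MSRB3 was 2.89 and 2.93 times the floor, and MSRB9, the closest to it in the control, 1.89 and 1.67 times. With a floor at the 55th percentile instead, MSRB6 was at least 9.41-fold lower, and it was 8.77-fold lower when the floor was instead added to each signal.

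Of the 4 members, 1 was higher and 1 lower by 2-fold or more. Over all 7753 named genes measured above the floor on at least 1 array, 291, or 3.75%, had a ratio of 2-fold or more in the higher direction and 165, or 2.13%, in the lower, 5.88% in all. Since the members were chosen with these ratios known, nothing is read from their share. MSRB6 had the lowest log2 ratio of the 7753, though it ranked 2 under a 55th-percentile floor and 34 when no floor was used. MSRB5 ranked 71 from the top, and 555 when no floor was used. The median log2 ratio was -0.10 for the 4 members and -0.03 for all 7753 genes. The spread of log2 ratios among the 500 genes nearest in mean signal, taken as a scaled median absolute deviation, was 0.47 around MSRB6, 0.49 around MSRB5, 0.43 around MSRB3 and 0.48 around MSRB9. The ratios of MSRB3 and MSRB9 were smaller than that spread. Those of MSRB5 and MSRB6 were larger, which the choice of the family had fixed.

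**Figure D2:**
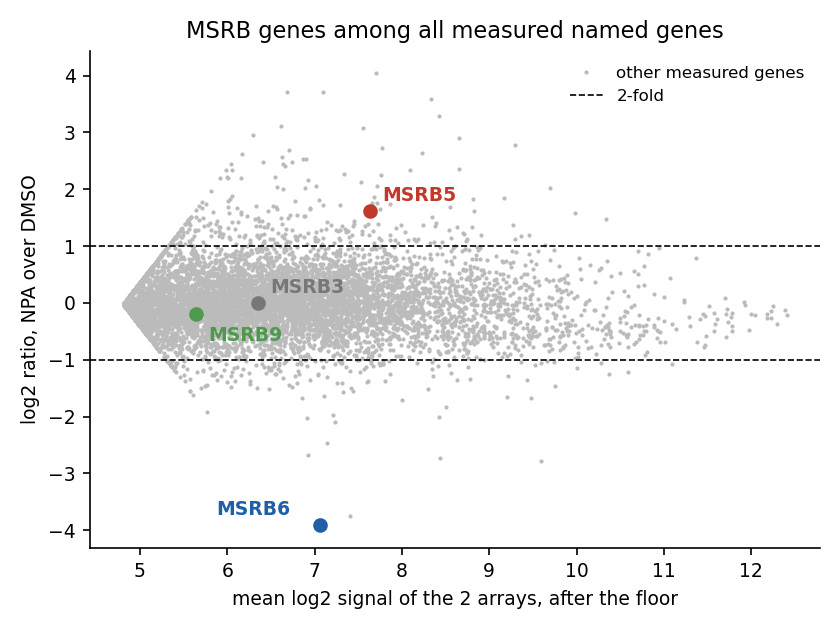
Log2 ratio of NPA over DMSO against the mean log2 signal of the 2 arrays for the 7753 measured named genes (grey), with the 4 MSRB genes in colour and dashed lines at 2-fold. MSRB6 is the lowest point at -3.91, MSRB5 lies above the upper line at 1.61, and MSRB3 and MSRB9 lie in the middle of the cloud.

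Each of the 4 members was read from 1 probe set, so no second probe set checks its ratio. All 4 probe sets carry the plain suffix that the array's maker gave to probe sets expected to match a single transcript, and no MSRB gene was on a probe set named for several genes. How far each probe set also binds its paralogs was not tested. The log2 ratios of MSRB5 and MSRB6 differed by 5.52.

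Most MSRB genes lie next to each other in the genome. That MSRB5 and MSRB6 are neighbours was known when the family was chosen, and the order of the other genes was not used for it. Of the 9 genes, 8 are on chromosome 4 and 1, MSRB1, on chromosome 1. Among protein-coding genes of the table, the 8 form 2 runs of 4 neighbours, MSRB3, MSRB4, MSRB5 and MSRB6 in one and MSRB7, MSRB8, MSRB9 and MSRB2 in the other. A derlin gene, for a protein that helps to remove misfolded proteins from the endoplasmic reticulum, is close to each run: DER2.2 beyond MSRB6 and DER2.1 before MSRB7. Within the first run the pseudogene AT4G04820 stands between MSRB4 and MSRB5. Its probe set, whose suffix marks possible cross-hybridisation, had signals of 2.52 and 1.28 on the control and NPA arrays, both under the floor.

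The log2 ratios of the measured genes around the runs lay between those of MSRB6 and MSRB5. That pair was chosen for its ratios, so nothing is read from this. Taking the 3 nearest named genes on each side of each run and of the MSRB5 and MSRB6 pair gave 13 genes other than MSRB genes, of which 8 were measured. By the 2-fold rule 0 were higher and 1 was lower. Over all measured genes the shares were 3.75% and 2.13%, so little can be read from counts among 8 genes. DER2.2, the nearest named gene beyond MSRB6, had 81.1 and 120.2, a log2 ratio of 0.57. AT4G04880, the next one, had 78.1 and 74.0, a log2 ratio of -0.08, and AT4G04940 was lower by at least 1.74-fold, since its NPA signal was at the floor. On the MSRB3 side, AT4G04790 was under the floor on both arrays, AT4G04760 was at least 1.17-fold lower, and AT4G04750 had a log2 ratio of 0.37.

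The gene at 2-fold was AT4G21870, near the end of the second run, which had signals of 206 and 65.0 and was 3.17-fold lower with NPA. Its neighbours AT4G21865 and AT4G21880 were under the floor on both arrays. On the other side of that run, DER2.1 had 179.6 and 210.1, a log2 ratio of 0.23. QQT2 had a log2 ratio of 0.09, and AT4G21820 was under both floors.

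**Figure D3:**
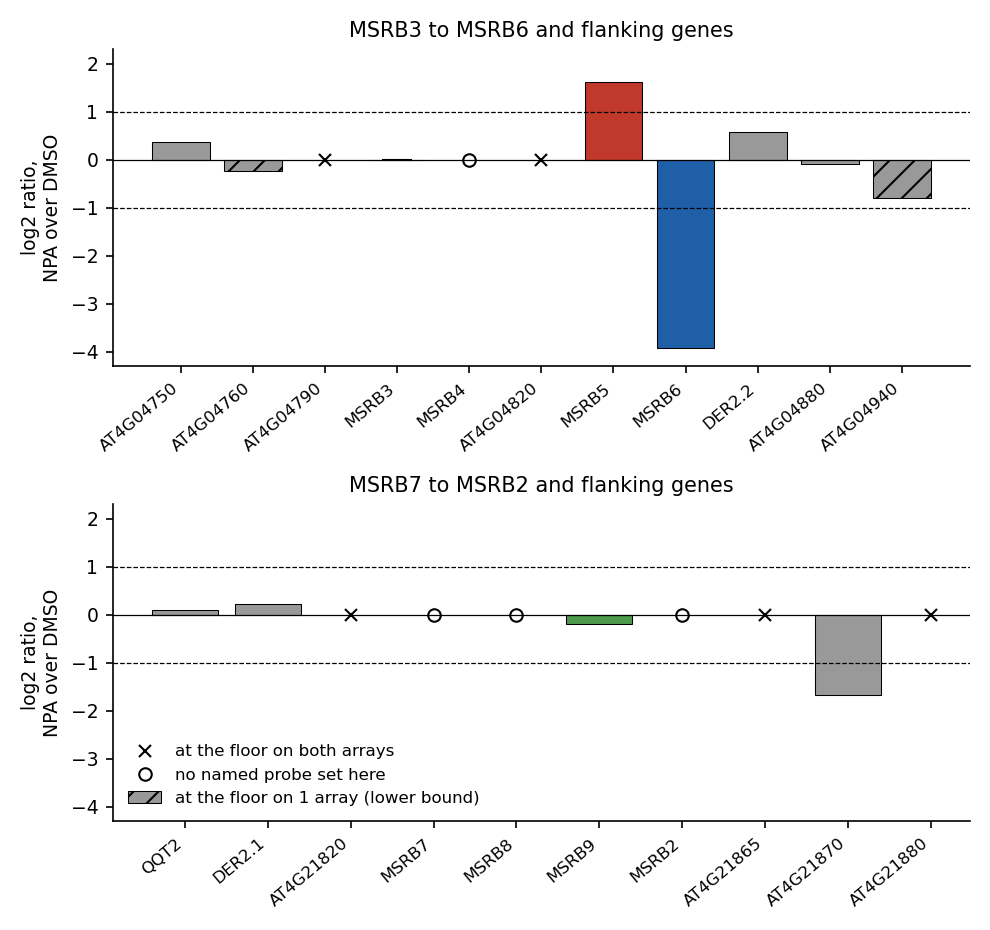
Log2 ratio of NPA over DMSO for named genes in their order along chromosome 4, in the run from MSRB3 to MSRB6 (top) and the run from MSRB7 to MSRB2 (bottom), with MSRB genes in colour and dashed lines at 2-fold. MSRB5 at 1.61 and MSRB6 at -3.91 stand side by side, and among the flanking genes AT4G21870 at -1.67 passes a dashed line.

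MSRB5 and MSRB6 were chosen as neighbours with opposite ratios, so their place among other neighbouring genes describes that choice and supports nothing further. It was looked up after the values were seen. Of 2447 pairs of next-door protein-coding genes with both members measured, 8, or 0.327%, had one gene higher and the other lower by 2-fold or more, the chosen pair included. In 9 pairs both genes passed 2-fold in the same direction. The median difference in log2 ratio within a pair was 0.45, against 5.52 for MSRB5 and MSRB6. In 8 of 9 alternative settings, as in the reported one, no pair differed more, but without a floor 11 pairs did.

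The few genes most like MSRB5 and MSRB6 were found as those closest in the log2 signals of both arrays, a likeness over 2 samples only. Closest to MSRB5 was AT4G33040, with signals of 115 and 336 and a distance of 0.05 log2 units, followed by AT1G72230 at 0.11 and AT3G62550 at 0.16. Closest to MSRB6 was AT3G16670, with 619.8 and 46.1, at a distance of 0.49. AT1G13650 was at 0.89 and AT1G04040 at 1.02. The distances use the same signals on which MSRB5 and MSRB6 were chosen, so nothing further is read from them.

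The enzymes of the same pathway were read from lists chosen for this family. Over all measured genes 3.75% were higher and 2.13% lower by the 2-fold rule. Each list has few measured genes, so its count at 2-fold, 0 included, is given without a reading. Of 5 type A reductases, 1 was named: MSRA5 had signals of 79.7 and 70.4, a log2 ratio of -0.18. The other type A genes were not analysed here. Of 34 genes for thioredoxins and their reductases, which supply electrons to the reductases, 9 were measured and 0 reached 2-fold in either direction. Their median log2 ratio was -0.26, against -0.03 for all measured genes, but quantile normalization brought it to -0.13 and lowess centring to -0.08. Of the 9, 8 were below 0, as were 52.6% of all measured genes, and 3 of the 8 lay between -0.05 and -0.01.

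The 3 thioredoxin-related genes with the lowest ratios encode plastid proteins, but so do other measured members, so location does not set them apart. The other measured members ranged from -0.41 to 0.17. NTRC, a plastid enzyme that joins a thioredoxin reductase to a thioredoxin, had signals of 536 and 278, a log2 ratio of -0.95 and so just under 2-fold. Thioredoxin y2 had 581 and 315, a log2 ratio of -0.88, and thioredoxin x (THX) 875 and 515, a log2 ratio of -0.76. The mitochondrial thioredoxin gene TO1 had 116 and 130.2, a log2 ratio of 0.17, and was the only one of the 9 above 0. The other mitochondrial thioredoxin gene, TO2, had a log2 ratio of -0.05. The thioredoxin genes ATHM2 and TY1, also for plastid proteins, had -0.04 and -0.01. TRXF2 had 565 and 425, a log2 ratio of -0.41, and AT2G04700 had a log2 ratio of -0.26. Of 10 glutaredoxin genes of the CPYC and CGFS classes, 5 were measured and 0 reached 2-fold, with a median of 0.37. Of the 5, 3 were above 0 and 2 below. GRXC2 had 555 and 922, a log2 ratio of 0.73, AT1G77370 had a log2 ratio of 0.77, and GRXC1 0.37. AT5G20500 had a log2 ratio of -0.19 and AT2G20270 -0.10.

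Of 42 genes for antioxidant enzymes, 7 were measured, with 0 higher and 1 lower by the 2-fold rule and a median log2 ratio of -0.38, brought to -0.21 by quantile normalization and to -0.10 by lowess centring. The stromal ascorbate peroxidase gene SAPX, whose product removes hydrogen peroxide in the plastid, had 249 and 94.0, 2.64-fold lower. The thylakoid ascorbate peroxidase gene TAPX had a log2 ratio of -0.50 and the plastid glutathione reductase gene GR -0.68. The mitochondrial peroxiredoxin gene PRXIIF had 202 and 276, a log2 ratio of 0.45, and was the 1 of the 7 above 0. The rest had smaller ratios below 0: AT3G11630 -0.38, AT3G52960 -0.21 and GR1 -0.16. All 5 measured photosynthesis markers of the shoot were also below 0, with a median of -0.27, from SBPASE at -0.77 to RCA at -0.13. Their part in the plastid thioredoxin and antioxidant ratios was not tested.

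Of 19 genes of methionine and S-adenosylmethionine metabolism, 4 were measured, with 1 higher and 0 lower by the 2-fold rule and a median of 0.44. The higher gene was MGL, methionine gamma-lyase, which breaks methionine down, with 65.9 in the control and 149 with NPA, 2.26-fold higher. Adding the floor to each signal brought it under 2-fold, at a log2 ratio of 0.91. CBL, for cystathionine beta-lyase in methionine synthesis, and MMT, for methionine S-methyltransferase, each had a log2 ratio of 0.44. HMT-1, for a homocysteine methyltransferase, had -0.10. Of 12 marker genes of oxidative stress, 2 were measured and 0 reached 2-fold. The zinc finger gene STZ had 34.4 and 41.9, a log2 ratio of 0.29. AT2G21640, with its NPA signal at the floor, was lower by at least 1.05-fold, and AT3G28580 was under the floor on both arrays.

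**Figure D4:**
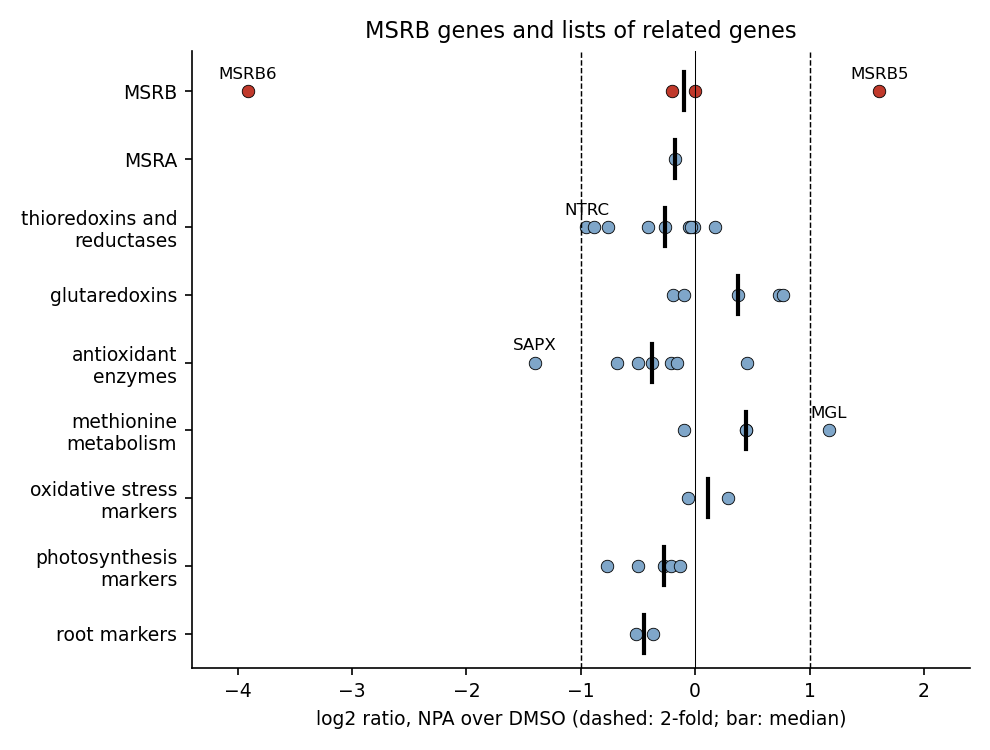
Log2 ratio of NPA over DMSO for every measured gene of the MSRB family, of the lists of related genes and of the tissue marker lists, 1 point per gene, with a bar at each median and dashed lines at 2-fold. Outside the MSRB row, SAPX at -1.40 and MGL at 1.17 pass the dashed lines, and NTRC lies just inside at -0.95.

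The tissue and the arrays were checked once for all of these values. The 5 photosynthesis markers had signals from 3671 to 5597 in the control and from 2147 to 5105 with NPA, summing to 23077 and 18373. Of 9 root markers, 3 were named: PYK10 had 609 and 425, EXPA18 36.8 and 28.3, and EXPA7 was under the floor on both arrays. PYK10 was thus well above the floor on both, and whether the samples held root tissue was not tested. Of 6 flower markers, 0 were named on the array here. The median signal was 43.3 and 44.5 on the control and NPA arrays. Hybridisation spike-ins, read by 18 probe sets, had log2 ratios from -0.61 to 0.20 with an SD of 0.21, while over 12824 probe sets above the floor on both arrays the SD was 0.56.

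The MSRB ratios were taken again under 9 other settings of scaling, floor and probe set choice. MSRB5 ranged from a log2 ratio of 1.40 to 1.61 and MSRB6 from -3.95 to -3.13, so both stayed past 2-fold in opposite directions. MSRB3 ranged from -0.08 to 0.00. MSRB9 ranged from -0.25 to 0.04, the last with the floor at the 55th percentile, where its control signal of 53.5 was just above the floor of 53.1 and its NPA signal under the floor of 55.2. Under a 3-fold rule MSRB6 passed in all 9 settings, but MSRB5, at 3.06-fold as reported, came to 2.98-fold after median scaling, 2.95-fold after quantile normalization and 2.65-fold with the floor added.

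**Figure D5:**
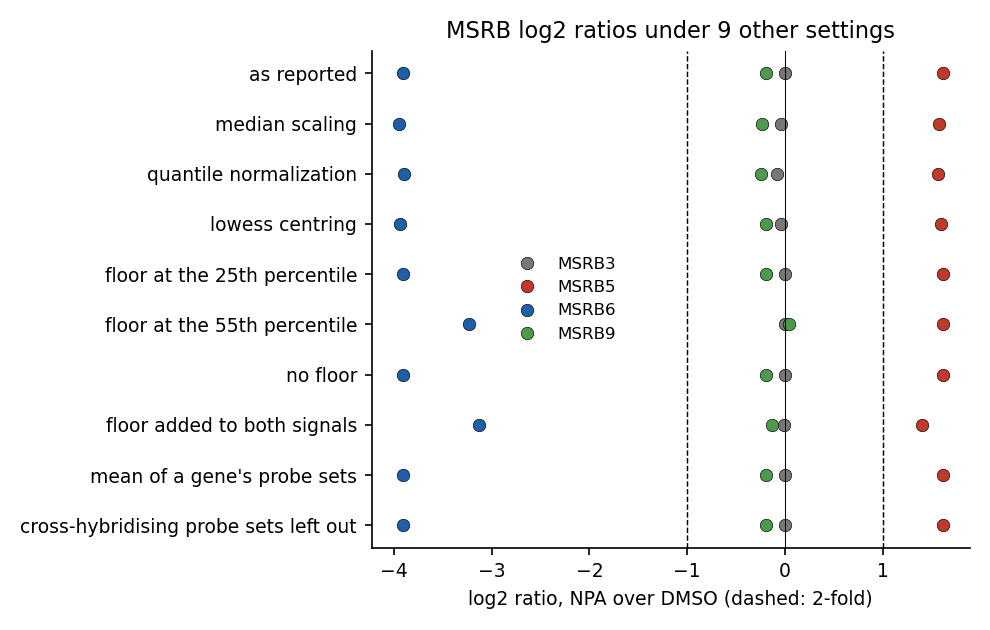
Log2 ratio of NPA over DMSO of the 4 MSRB genes as reported (top row) and under 9 other settings, with dashed lines at 2-fold. MSRB6 moves from -3.91 to -3.23 when the floor is set at the 55th percentile, to -3.13 with the floor added, and MSRB5 stays between 1.40 and 1.61.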

How the data were processed

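The authors deposited 1 linear signal intensity for each probe set, made with MAS5 and GCOS, per the submitters' processing notes, which give no versions. The mean after trimming 2% at each end was 100.0 on both arrays. Of 22746 probe sets that are not controls, 13513 have 1 gene, 503 several and 8730 are unnamed here. Gene names came from the platform annotation and the TAIR10.1 table, used for names and gene order only, which matched 13436. A gene was read from its brightest single-gene probe set.

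Signals were raised to each array's 40th percentile, log2 ratios taken and 2-fold used as a size rule, with no test because each group has 1 array. The members and lists were chosen with earlier results of these data known. Genes named were all MSRB genes, the 3 nearest named genes on each side of MSRB runs and the 3 genes closest in signal. All named MSRA genes were included. From each other list came the measured genes at 2-fold or, where none was, up to 3 with the largest ratios. Some others (TO1, TO2, ATHM2, TY1, TRXF2, AT2G04700, AT5G20500, AT2G20270, PRXIIF, AT3G11630, AT3G52960, GR1, GR, CBL, MMT, TAPX, HMT-1, RCA, AT3G28580, EXPA7) were named outside this rule, with their values seen. The steps were tested on simulated arrays with a smaller spread than these 2 arrays. Changes were planted only in probe sets bright in the control, so changes in dimmer ones were not covered. Python 3.11.15, numpy 2.4.6, pandas 2.3.3, statsmodels 0.14.6 and matplotlib 3.10.9 were used.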

Additional observations from a re-analysis of the deposited data

How the results depend on the processing

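No paired analysis was possible because there is 1 array in each group, for which reason also no replicate could be dropped. Alternatives were median, quantile and lowess scaling (span 0.3), a floor at the 25th or the 55th percentile, none at all, the floor added to each signal, probe sets averaged per gene, no cross-hybridising probe sets, and size rules of 1.5-fold and 3-fold. Of 36 log2 ratios of the 4 MSRB genes under 9 settings, 2 moved by more than the local spread, both of MSRB6 and both from a higher or added floor, and MSRB counts stayed at 1 higher and 1 lower in all 11 alternatives, each taken alone. Over all genes, 421 were higher and 297 lower with the floor at the 25th percentile. With no floor there were 1102 higher and 1340 lower genes, and 2 genes of the related lists were higher. With the floor added, 174 genes were higher and 71 lower, and 0 genes of the related lists were higher. With a 1.5-fold rule there were 869 higher and 822 lower genes, with 3 and 5 in the related lists, and a 3-fold rule 75 and 18 genes, with 0 and 0, by construction. The cause of the other shifts was not tested.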
